A study of Mus musculus with 24 samples.

Results

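The response of double positive (DP) cells to induction of ICN1, the intracellular domain of Notch1, was measured in sorted cells of mouse embryoid bodies. The DP samples were taken by their titles, 3 induced and 3 noninduced, and make up 6 of the 24 arrays of the study. All cells came from the embryonic stem cell line Ainv15 with ICN1 under a doxycycline-inducible control, and were differentiated as embryoid bodies, the aggregates in which stem cells form the early tissues in culture. In the induced groups ICN1 was switched on from day 3 to day 5, and the noninduced groups had no induction. All embryoid bodies were taken apart on day 6 and the cells were sorted into 4 fractions named DP, VE sp, CD41 sp and DN. The fraction names are not spelled out in the labels. Both DP groups carried the transgene and came from 1 line, and the drug was given with every induction, so that effects of doxycycline and of ICN1 cannot be told apart. The labels do not say whether replicates were separate cultures, so the p-values cover the scatter among these samples alone, and that may be technical.

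Notch receptors are cleaved when they bind a ligand on a neighbouring cell, and the freed intracellular domain enters the nucleus. There it joins the DNA-binding protein RBPJ and activates genes such as those of the Hes and Hey families of transcriptional repressors. In the early embryo the pathway acts in the choice between arterial and venous endothelium and in the formation of blood stem cells from hemogenic endothelium, the endothelial cells that give rise to blood. CD41, an integrin subunit, is an early marker of blood commitment, and VE-cadherin is an adhesion protein of endothelial junctions.

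The 6 DP arrays had mean raw intensities of 491, 198 and 454 in induced replicates 1, 2 and 3 and of 562, 430.5 and 309 in noninduced replicates 1, 2 and 3, within the range of 165 to 656 over all 24 arrays. Between 43.2% and 51% of probes were detected on the induced DP arrays and between 44.4% and 50.1% on the noninduced ones. Induced replicate 3 had the lowest array weight of all 24, 0.181, against 1.11 to 1.84 for the noninduced DP arrays. The log2 levels of the 3 induced arrays correlated with each other at 0.938 to 0.979 and those of the 3 noninduced arrays at 0.974 to 0.984. The induced minus noninduced differences agreed less between replicate pairs. Over all genes they correlated at 0.517 between pairs 1 and 2, 0.137 between pairs 1 and 3 and 0.117 between pairs 2 and 3. Below, a level is a normalized log2 intensity of 1 probe, a difference is induced minus noninduced on the log2 scale with its standard error, and adjusted p is that of limma over all 9591 genes tested. Levels of different genes are not compared, because each probe has its own brightness.

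Both genes that fit the labelled sort were detected on all 6 DP arrays. Itga2b, which encodes CD41, had levels of 11.07, 11.15 and 11.76 in induced DP cells and 11.61, 11.21 and 11.29 in noninduced DP cells. The groups overlapped and differed by -0.05 ± 0.23 (adjusted p = 0.955). Cdh5, which encodes VE-cadherin, had levels of 8.73, 8.83 and 9.87 in induced cells and 9.61, 9.50 and 10.13 in noninduced cells. It was lower in the induced array of each pair, with a difference of -0.60 ± 0.21 that missed the threshold (adjusted p = 0.159). Cdh5 was not detected on any CD41 sp or DN array. ICN1 itself has no probe known to be its own, and the Notch1 probe gave levels of 8.66, 8.82 and 9.11 in induced cells against 8.88, 9.27 and 9.32 in noninduced cells. Whether that probe reads the transgene is not known, so it does not check the labels.

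In DP cells 156 genes changed on induction, 1.63% of the genes tested, at an adjusted p under 0.05 in a fit with the replicate set as a block. Of these, 99 rose (1.03%) and 57 fell (0.594%), and each of the 156 had 1 sign in all 3 replicate pairs. A fit with this block favours such genes, so the shared sign is not separate support for the calls. The share with 1 sign over all genes was not counted. The list held 30 clone or locus names. A difference beyond 1 on the log2 scale was seen in 31 of the genes that rose and 22 of those that fell, and the smallest called difference was 0.462. The median over all genes was 0.02, and 1520 genes had an unadjusted p under 0.05. The groups did not overlap for 130 of the 156, and over all genes the induced arrays lay wholly above the noninduced ones for 5.72% and wholly below for 3.34%. The plot of difference against level shows the called genes on both sides, with Hey1 at the top and Oit3 at the bottom.

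**Figure D1:**
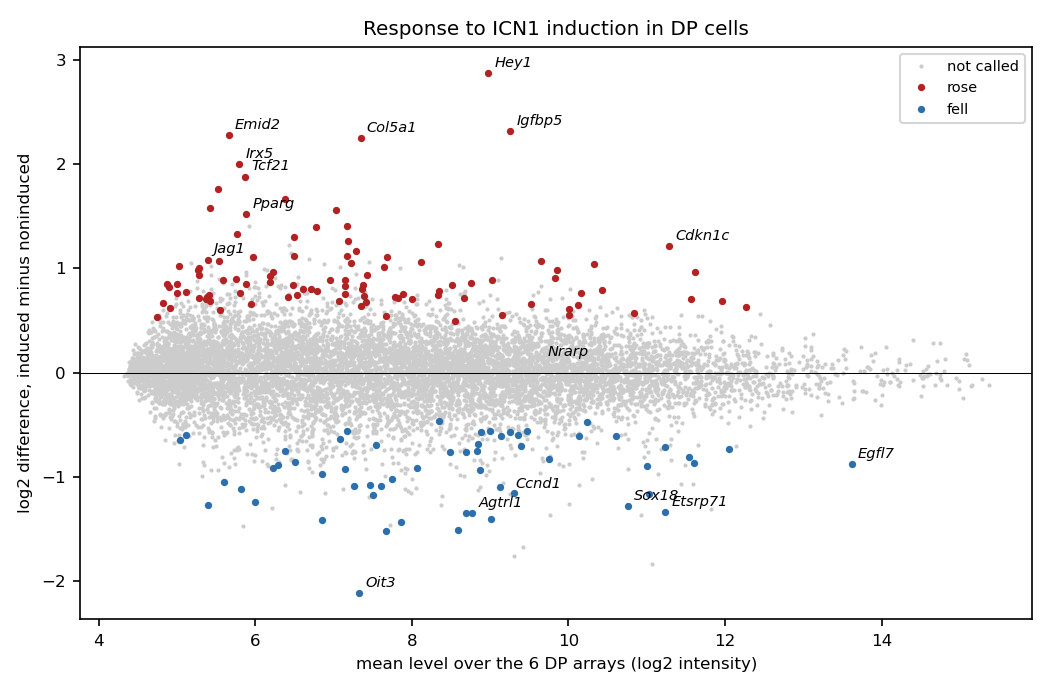
Each point is 1 of 9591 genes, with its mean level over the 6 DP arrays (log2 intensity) on the x axis and the log2 difference, induced minus noninduced, on the y axis. Coloured points are the 99 genes that rose and the 57 that fell at limma's adjusted p under 0.05. Hey1 had the largest named rise (2.87) and Oit3 the largest named fall (-2.11), while Nrarp lay near 0 (0.10).

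The number of calls depended on single arrays. It was 38, 49 and 53 without replicate pair 1, 2 and 3. It was 86, 267 and 129 when induced array 1, 2 or 3 alone was left out, and 67, 48 and 73 when noninduced array 1, 2 or 3 was. Without the replicate block 14 genes were called, with median scaling in place of quantile normalization 10, and in a fit on the 6 DP arrays alone 3. Of the 40 called genes named below, 15 kept their call when any single array or any pair was left out: Hey1, Igfbp5, Emid2, Col5a1, Itga9, Timp2, Pparg, Tcf21, Chst2, Trib2, Ggtla1, Etsrp71, Sox18, Oit3 and Aqp8. Without the block, 9 of the 40 were still called: Col5a1, Tcf21, Chst2, Pparg, Itga9, Timp2, Oit3, Egfl7 and Ggtla1.

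Among the Notch targets, Hey1 was the gene that rose. Of 17 listed targets 13 passed the detection filter, 1 rose and none fell (7.69% called, against 1.63% of all genes). Their median difference was 0.15 against 0.02 for all genes. Hey1, a repressor of the Hairy and Enhancer of split related family, had levels of 11.29, 9.53 and 10.41 in induced DP cells and 8.73, 6.26 and 7.63 in noninduced DP cells. All 3 induced arrays lay above all 3 noninduced ones, although replicates of 1 group spread over more than 1 log2 unit. The difference was 2.87 ± 0.31 (adjusted p = 5.32e-05), and it had an adjusted p of 0.0646 without the replicate block.

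The other widely used readouts of the pathway showed no such separation in DP cells. Nrarp, a Notch-induced feedback inhibitor of the ICN1 complex, had levels of 9.99, 9.44 and 9.69 in induced cells and 9.63, 8.98 and 10.20 in noninduced cells. The groups overlapped, and the pairs did not share 1 sign (0.10 ± 0.20, adjusted p = 0.859). Hes1, a repressor that Notch activates in many tissues, had levels of 7.72, 6.56 and 7.33 in induced cells and 7.37, 6.69 and 6.72 in noninduced cells. These overlapped as well (0.27 ± 0.26, adjusted p = 0.666). Dtx1, a ubiquitin ligase of the pathway, differed by 0.87 ± 0.32 (adjusted p = 0.184), and Notch3, a receptor that is itself a target, by 0.67 ± 0.24 (adjusted p = 0.161). Hey2 differed by -0.08 and was detected on 2 induced arrays and 1 noninduced array, and Heyl was detected on none of the 6.

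Targets tied to growth did not pass the threshold, and they pointed in different directions. Myc, a driver of growth, had levels of 6.32, 6.36 and 6.09 in induced cells and 5.72, 5.35 and 5.99 in noninduced cells (0.57 ± 0.21, adjusted p = 0.176). Ccnd1, a G1 cyclin, had levels of 8.30, 9.19 and 8.51 in induced cells and 9.60, 10.45 and 9.45 in noninduced cells. All induced Ccnd1 values lay below all noninduced ones, with a difference of -1.17 ± 0.33 (adjusted p = 0.084). Cdkn1a, the inhibitor p21, had levels of 10.38, 11.42 and 10.87 in induced cells against 11.59, 12.07 and 11.51 in noninduced cells. Its groups did not overlap either, and it also missed the threshold (-0.84 ± 0.22, adjusted p = 0.0611).

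Of the Notch pathway components, the ligand gene Jag1 was the one called. It had levels of 5.98, 5.91 and 5.91 in induced DP cells and 4.80, 4.91 and 4.84 in noninduced DP cells, where it was not detected on any array. Jag1 was therefore at least 1.94-fold higher in induced cells (adjusted p = 0.0111). Here and below, the bound sets the induced mean against the lowest detected signal of each noninduced array, or the probe's own signal where that was higher. The call was lost without induced array 1 (adjusted p = 0.0517) or noninduced array 2 (0.0708), and without the replicate block (0.0677). Among 27 of 36 listed components that passed the filter, 1 rose and none fell (3.7% called, against 1.63% of all genes). Their median difference was -0.13. The receptor genes Notch1 (-0.30 ± 0.20, adjusted p = 0.501) and Notch4 (-0.19, adjusted p = 0.795) and the glycosyltransferase Mfng (-0.04, adjusted p = 0.962), which tunes receptor and ligand pairing, were not called. Dll4, the arterial Delta ligand, was detected on none of the 6 arrays.

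The promoters of 4 genes that moved in DP cells are shown because they include rises and falls. They are Jag1, the ligand that rose, Pparg, which rose more than the mean of the other fractions, and Etsrp71 and Egfl7, vascular genes that fell. Sequences are RefSeq windows of GRCm38.p6, from 250 bases before to 50 after a gene start, on the gene's own strand. Capitals mark matches on either strand to TGGGAA, the core of the RBPJ site, or to CACGTG or CACGCG, E-box forms that Hes and Hey proteins bind. The windows are chr2:137116471-137116770 (minus strand) for Jag1, chr6:115421816-115422115 (plus) for Pparg, chr7:30635803-30636102 (minus) for Etsrp71 and chr2:26580833-26581132 (plus) for Egfl7.
Jag1: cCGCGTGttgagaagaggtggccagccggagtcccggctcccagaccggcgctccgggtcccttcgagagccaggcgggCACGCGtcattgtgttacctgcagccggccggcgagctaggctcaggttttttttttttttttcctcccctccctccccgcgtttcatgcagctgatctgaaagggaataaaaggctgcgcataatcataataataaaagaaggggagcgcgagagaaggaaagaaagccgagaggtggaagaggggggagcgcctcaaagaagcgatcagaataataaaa
Pparg: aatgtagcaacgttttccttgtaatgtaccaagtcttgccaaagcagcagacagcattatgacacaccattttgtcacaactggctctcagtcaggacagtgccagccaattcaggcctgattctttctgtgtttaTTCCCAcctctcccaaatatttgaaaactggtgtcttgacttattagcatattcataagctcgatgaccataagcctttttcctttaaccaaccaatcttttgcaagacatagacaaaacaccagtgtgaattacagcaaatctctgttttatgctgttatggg
Etsrp71: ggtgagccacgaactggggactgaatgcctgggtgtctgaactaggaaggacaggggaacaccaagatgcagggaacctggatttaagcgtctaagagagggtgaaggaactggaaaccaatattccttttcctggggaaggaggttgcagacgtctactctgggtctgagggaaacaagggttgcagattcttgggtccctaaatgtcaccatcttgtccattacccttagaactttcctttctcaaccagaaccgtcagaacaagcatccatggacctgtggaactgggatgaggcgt
Egfl7: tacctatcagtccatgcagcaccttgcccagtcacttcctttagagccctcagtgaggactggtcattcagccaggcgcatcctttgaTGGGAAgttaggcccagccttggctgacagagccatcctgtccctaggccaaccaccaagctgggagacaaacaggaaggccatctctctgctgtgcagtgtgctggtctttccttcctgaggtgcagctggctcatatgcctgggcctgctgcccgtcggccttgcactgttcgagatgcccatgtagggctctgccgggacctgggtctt
The Jag1 window held CACGCG once on each strand, the Pparg window TGGGAA on the reverse strand and the Egfl7 window TGGGAA on the forward strand. The Etsrp71 window held none of the motifs. Pparg and Egfl7 each had 3 windows in the table, and those shown are the ones with a TGGGAA match. Among those not shown, a Pparg window held CACGCG 2 times on the forward strand and an Egfl7 window held it 1 time on the reverse strand. Windows were found for 116 of the 156 called genes. Hey1, the called Notch target, and Sox18 had none, so their promoters were not examined. TGGGAA stood in 33.3% of the 75 matched genes that rose, 19.5% of the 41 that fell and 27.1% of the 7445 tested genes with a window. CACGTG stood in 6.67% of those that rose, 12.2% of those that fell and 11.9% of all tested, and CACGCG in 14.7%, 14.6% and 19.7%. A gene counted if any of its windows held the motif. Over all 32851 windows of the table the shares were 25.6% for TGGGAA, 7.15% for CACGTG and 9.27% for CACGCG. A match describes the letters in a window and does not mark a bound site.

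The largest rises after Hey1 were in genes of secreted and matrix proteins. Igfbp5, a secreted binding protein of insulin-like growth factors, had levels of 10.88, 10.15 and 10.21 in induced DP cells and 8.47, 7.48 and 8.34 in noninduced DP cells. The groups stood apart by more than 1 log2 unit, and the difference was 2.31 ± 0.26 (adjusted p = 8.38e-05, 0.0739 without the block). Col5a1, a chain of the fibrillar collagen type V, had levels of 7.95, 8.92 and 8.53 in induced cells and 5.98, 6.83 and 5.86 in noninduced cells. It rose by 2.25 ± 0.20 with the smallest adjusted p of the named genes in DP cells (7.52e-06). Emid2, a collagen gene now named Col26a1, had levels of 7.32, 6.01 and 7.05 in induced cells and 4.78, 4.34 and 4.44 in noninduced cells. It was detected on all induced arrays and on no noninduced array, and was at least 3.53-fold higher (adjusted p = 0.000483, 0.112 without the block).

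Itga9, an integrin subunit, had levels of 7.18, 7.61 and 7.65 in induced cells and 6.25, 6.10 and 5.89 in noninduced cells (1.40 ± 0.14, adjusted p = 3.05e-05). Timp2, an inhibitor of matrix metalloproteinases, had levels of 7.36, 6.72 and 7.36 in induced cells and 6.03, 5.20 and 6.32 in noninduced cells (1.29 ± 0.18, adjusted p = 0.000764). Neither gene's groups overlapped. Both calls held without the block, and both were lost with median scaling (adjusted p = 0.216 for Itga9 and 0.407 for Timp2) and on the DP arrays alone (0.157 and 0.146). On the list of mesenchyme and matrix genes, Col5a1 was the 1 of 24 measured members that rose and none fell (4.17% called, against 1.63% of all genes). The median of that list was 0.13, 7 of the 24 were undetected on all 6 arrays, and its summed level was 12.96 to 13.64 in induced cells and 13.16 to 13.71 in noninduced cells.

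Transcription factor genes were among the rises. Pparg, the nuclear receptor known for fat cell and macrophage differentiation, had levels of 6.10, 6.88 and 6.94 in induced DP cells and 4.81, 5.38 and 5.18 in noninduced DP cells. The groups did not overlap and differed by 1.52 ± 0.17 (adjusted p = 8.38e-05, 0.00739 without the block). Tcf21, a basic helix-loop-helix factor of mesothelial and mesenchymal development, had levels of 6.71, 6.69 and 7.01 in induced cells and 5.31, 4.82 and 4.65 in noninduced cells, where 1 of 3 arrays detected it (1.88 ± 0.29, adjusted p = 0.00123). Irx5, an Iroquois homeobox gene, had levels of 7.04, 6.86 and 6.49 in induced cells and 5.15, 4.84 and 4.40 in noninduced cells. It was detected on all induced arrays and 1 noninduced array, and it rose by 2.00 ± 0.35 (adjusted p = 0.00539). The Irx5 call was lost without replicate pair 1 (adjusted p = 0.0534) or 3 (0.0520) and without the block (0.0835).

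The rest of the 15 largest named rises had varied roles. Chst2, a sulfotransferase of glycans, had levels of 6.93, 6.91 and 7.78 in induced cells and 5.73, 5.35 and 5.57 in noninduced cells (1.66 ± 0.23, adjusted p = 0.000616). Trib2, a pseudokinase, had levels of 7.46, 8.18 and 7.78 in induced cells and 5.87, 6.89 and 6.00 in noninduced cells (1.55 ± 0.22, adjusted p = 0.000764, 0.059 without the block). In both the induced arrays were all above the noninduced ones. Aldh1b1, a mitochondrial aldehyde dehydrogenase, had levels of 6.56, 6.00 and 6.63 in induced cells and 4.62, 4.5 and 4.80 in noninduced cells, where it was undetected, and was at least 2.68-fold higher (adjusted p = 0.00605), a call lost without replicate pair 1 (0.0849) or 3 (0.0612). Slc7a11, the cystine transporter, had levels of 5.72, 6.09 and 6.82 in induced cells and 4.64, 4.71 and 4.55 in noninduced cells, where it too was undetected. It was at least 2.36-fold higher (adjusted p = 0.00744), and the call was lost without noninduced array 2 (0.059). Lbh, a transcriptional cofactor, differed by 1.41 ± 0.35 (adjusted p = 0.0494) and lost its call without any 1 of the 6 arrays (adjusted p = 0.0609 to 0.148). Grb7, an adaptor of receptor tyrosine kinases, differed by 1.33 ± 0.27 (adjusted p = 0.0146), and lost its call without induced array 1 or 3 or noninduced array 2 or 3 (0.0535 to 0.0974). A second probe of Lbh differed by 0.62 and was not called.

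**Figure D2:**
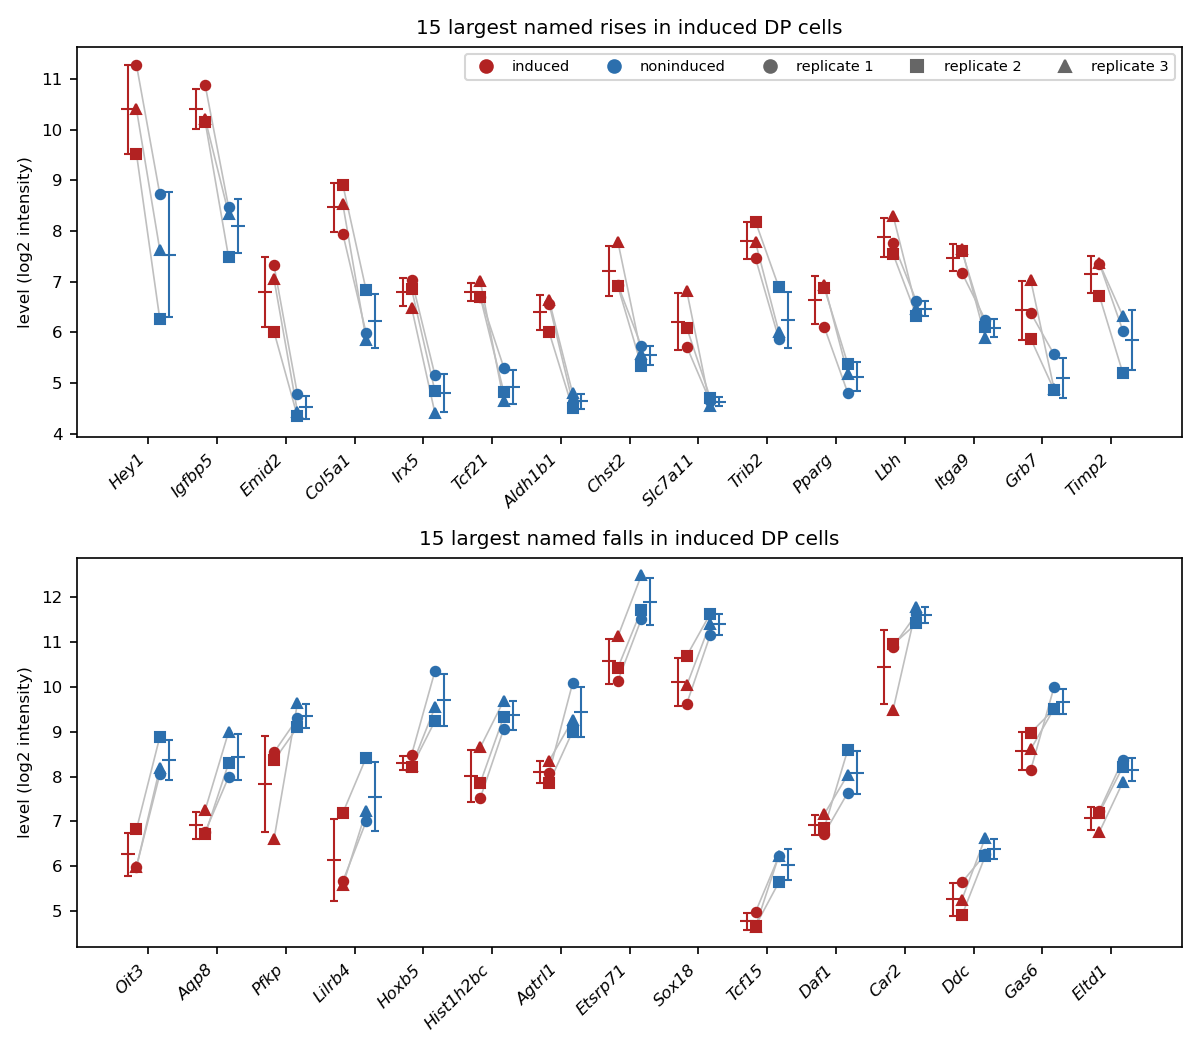
Levels (log2 intensity) of the 15 largest named rises, above, and the 15 largest named falls, below, in induced (left, red) and noninduced (right, blue) DP arrays. Symbols mark replicates 1 to 3, grey lines join a pair, and the short bars give mean ± SD (n = 3). Every line runs the same way within a gene because genes were picked for 1 sign in all pairs. Hey1 has the largest difference of the rises (2.87).

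Of 32 measured cell cycle and replication genes, 2 rose and none fell (6.25% called, against 1.63% of all genes). Cdkn1c, the inhibitor p57, had levels of 12.21, 11.74 and 11.74 in induced DP cells and 10.56, 10.32 and 11.17 in noninduced DP cells. The groups did not overlap (1.21 ± 0.23, adjusted p = 0.00824), and the call was lost without induced array 1 (0.0535) and without the block (0.441). Gmnn, which encodes geminin, an inhibitor of replication licensing, had levels of 5.97, 6.16 and 6.07 in induced cells and 5.36, 5.17 and 4.47 in noninduced cells (1.07 ± 0.21, adjusted p = 0.0128). Its call was lost without induced array 3 or noninduced array 2 or 3 (0.0592 to 0.101) and without the block (0.587). The median of the list was 0.19 and 23 of the 32 differences were above 0. The summed level of the list was 15.89 to 16.03 in induced cells and 15.79 to 15.80 in noninduced cells.

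Of 25 measured genes of the BMP and TGF-beta pathway, 2 rose and none fell (8% called, against 1.63% of all genes), and both calls depended on single arrays. Smad6, an inhibitory Smad of BMP signalling, had levels of 8.43, 7.73 and 8.29 in induced DP cells and 7.23, 6.88 and 7.30 in noninduced DP cells (1.02 ± 0.21, adjusted p = 0.0146). The groups did not overlap, but in a fit of all probes a second Smad6 probe differed by 0.13 and was not called. Leaving out induced array 1 or 3 or noninduced array 1 or 2 ended the call (adjusted p = 0.0559 to 0.103), as did leaving out the block (0.106). Tgfbr1, a TGF-beta receptor, differed by 0.58 ± 0.13 (adjusted p = 0.0277), and 5 of the 6 single arrays ended that call when left out (0.0501 to 0.131). The list had a median of -0.02, against 0.02 for all genes.

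The genes that fell included 4 of endothelial cells and the early vascular regulator Etsrp71. Etsrp71, now named Etv2, is the ETS factor that specifies blood and endothelial progenitors from mesoderm. It had levels of 10.14, 10.43 and 11.13 in induced DP cells and 11.51, 11.71 and 12.49 in noninduced DP cells. Each induced array lay below each noninduced one, and the 3 pairs differed by -1.37, -1.28 and -1.36 (fitted difference -1.34 ± 0.22, adjusted p = 0.00276). Without the replicate block, which takes out the shift between sets, the adjusted p was 0.19. The arrays measure sorted bulk cells, so that fewer cells of a type and less RNA per cell cannot be told apart here or for the genes below.

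Sox18, a SoxF factor of vascular and lymphatic development, had levels of 9.62, 10.69 and 10.03 in induced DP cells and 11.15, 11.62 and 11.41 in noninduced DP cells. The groups did not overlap (-1.28 ± 0.19, adjusted p = 0.000819, 0.0646 without the block). Egfl7, a matrix-bound factor secreted by endothelial cells, had levels of 13.02, 13.24 and 13.28 in induced cells and 14.06, 14.16 and 13.95 in noninduced cells. It fell by 0.88 ± 0.15 (adjusted p = 0.00349), a call that was lost without replicate pair 1 (0.0616). Of 2 further Egfl7 probes, 1 was called with a difference of -0.99 and 1 was not (-0.22). Agtrl1, now Aplnr, the apelin receptor, had levels of 8.09, 7.86 and 8.35 in induced cells and 10.08, 9.0 and 9.26 in noninduced cells (-1.35 ± 0.26, adjusted p = 0.0104). Eltd1, now Adgrl4, an adhesion receptor of endothelium, had levels of 7.24, 7.20 and 6.77 in induced cells and 8.37, 8.22 and 7.88 in noninduced cells (-1.09 ± 0.21, adjusted p = 0.0107). Neither pair of groups overlapped. Agtrl1 lost its call without induced array 1 (0.0569) or noninduced array 1 (0.0715), and Eltd1 without noninduced array 1 (0.0706).

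On the endothelial list as a whole, 4 of 34 measured genes fell and none rose (11.8%, against 1.63% of all genes called). The median difference was -0.26, with pair medians of -0.22, -0.19 and -0.31, and 10 of the 34 differences were above 0. The summed level was 15.28, 15.40 and 15.07 in induced DP cells and 15.77, 15.82 and 15.58 in noninduced DP cells, so that the groups did not overlap. The sum is weighted to bright genes. Without Egfl7, a choice made after seeing the data, it was 14.94, 15.04 and 14.58 in induced cells and 15.25, 15.27 and 15.02 in noninduced cells, lower in each induced array of a pair but overlapping between groups. Widely used endothelial genes were not called: Pecam1 differed by -0.63 (adjusted p = 0.229), Tie1 by -0.61 (0.0966), Cldn5 by -0.92 (0.257), Tek by -0.42 (0.395), Flt1 by -0.06 (0.942) and Calcrl by 0.85 (0.108). The count of 4 fell to 1 without the block, to 0 with the DP arrays alone or with median scaling, to 1 without replicate pair 1 and to 2 without pair 2 or without noninduced array 1. The list median stayed below 0 in each of these alternatives, at -0.12 to -0.45 over all 18. Among 20 arterial genes Jag1 rose and none fell (5% called, against 1.63% of all genes), with a median of 0.08. Gja4, an arterial connexin, had levels of 10.61, 11.20 and 10.19 in induced cells and 11.62, 12.38 and 10.91 in noninduced cells, lower in each pair but overlapping between groups (-0.97 ± 0.27, adjusted p = 0.0763). The arterial ligand Efnb2 differed by 0.76 ± 0.29 (adjusted p = 0.198).

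Other falls were in genes that are not on the endothelial list. Oit3, a secreted zona pellucida domain protein, had the largest named fall, with levels of 5.99, 6.82 and 5.98 in induced DP cells and 8.05, 8.89 and 8.19 in noninduced DP cells. The groups were more than 1 log2 unit apart (-2.11 ± 0.27, adjusted p = 0.000379), and Oit3 kept its call under all 18 alternatives. Aqp8, a water channel, had levels of 6.77, 6.72 and 7.26 in induced cells and 7.99, 8.30 and 9.0 in noninduced cells (-1.51 ± 0.21, adjusted p = 0.000539), and a second probe was called too (-1.20). Without the block the adjusted p of Aqp8 was 0.133. Ddc, an amine-forming decarboxylase, had levels of 5.64, 4.9 and 5.25 in induced cells and 6.27, 6.23 and 6.64 in noninduced cells (-1.12 ± 0.18, adjusted p = 0.00215), a call lost without replicate pair 2 (0.0516). Hoxb5, a homeobox gene of axial patterning, had levels of 8.49, 8.21 and 8.23 in induced cells and 10.35, 9.24 and 9.55 in noninduced cells. It fell by 1.41 ± 0.28 (adjusted p = 0.0141), and the call was lost without induced array 1 (0.0569) or noninduced array 1 (0.0896). Hoxb5 was the 1 of 13 measured Hox genes called (7.69%, against 1.63% of all genes). The median of these was -0.26, 3 of the 13 differences were above 0, and 4 genes were undetected on all 6 arrays. Their summed level was 9.81 to 10.14 in induced cells and 10.40 to 11.23 in noninduced cells. That sum is weighted to bright genes and includes Hoxb5 itself, and a sum without Hoxb5 was not computed. It therefore does not show a fall of the Hox genes as a family.

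Some of the called falls rested on single arrays. Gas6, a ligand of TAM receptors, differed by -1.10 ± 0.23 (adjusted p = 0.0212), and 3 of the 6 single arrays ended its call when left out (0.0611 to 0.118). Daf1, now Cd55, a complement regulator, differed by -1.17 ± 0.23 (adjusted p = 0.0117) and lost its call without noninduced array 2 (0.105). Tcf15, a mesodermal helix-loop-helix factor, differed by -1.27 ± 0.25 (adjusted p = 0.0128) and lost its call without noninduced array 1 or 3 (0.0713 and 0.0611). The histone gene Hist1h2bc (-1.35 ± 0.26, adjusted p = 0.0102) lost it without noninduced array 1 or 2 (0.0589 and 0.0945), and the inhibitory receptor Lilrb4 (-1.41 ± 0.29, adjusted p = 0.0141) without 3 of the single arrays (0.0629 to 0.127). Pfkp, a glycolytic enzyme, and Car2, a carbonic anhydrase of red cells, had their largest pair difference in replicate 3. The Pfkp pairs differed by -0.75, -0.74 and -3.02 and the Car2 pairs by -0.73, -0.47 and -2.28. Without induced array 3 the differences were -0.78 for Pfkp (adjusted p = 0.119) and -0.71 for Car2 (0.166), so that both calls were lost.

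Of 112 measured genes on 5 lists of blood cells, 3 were called in DP cells (2.68%, against 1.63% of all genes). Among 24 measured blood stem and progenitor regulators Etsrp71 was the 1 call, and the median was 0.05. Runx1, the factor required for blood formation from endothelium, had levels of 8.92, 9.72 and 7.28 in induced cells and 8.88, 9.24 and 7.66 in noninduced cells, which overlapped (0.05 ± 0.33, adjusted p = 0.97). Gata2, a stem and progenitor factor, had levels between 9.84 and 10.35 in induced cells and between 8.96 and 9.70 in noninduced cells. Its induced arrays were all higher, but the difference of 0.83 ± 0.27 did not pass (adjusted p = 0.125). Gata1, the erythroid and megakaryocytic factor, differed by -0.16 ± 0.23 (adjusted p = 0.811) and Tal1, a shared blood and endothelial factor, by 0.02 ± 0.18 (0.97). Of 35 erythroid genes Car2 fell and none rose, with a median of 0.06 and a summed level of 15.02 to 15.66 in induced cells and 15.35 to 15.87 in noninduced cells. None of 27 megakaryocyte and platelet genes was called (median -0.11), and neither were any of 7 lymphoid genes (0.02). At the share of 1.63% called over all genes, lists this short would hold few or no calls. Alox5, a leukotriene enzyme, was the 1 of 21 myeloid genes called, with a difference of -0.91 ± 0.21 (adjusted p = 0.037). It lost its call without induced array 1 or noninduced array 2 or 3 (0.0938 to 0.233).

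Markers of other cell types that a gate could hold gave no call. This was so for 14 smooth muscle and pericyte genes, 14 cardiac genes, 11 genes of the primitive streak and early mesoderm, 12 pluripotency genes, 14 endoderm genes, 14 epithelial genes and 5 neural genes. At the share of 1.63% called over all genes, lists this short would hold few or no calls, so the lack says little. The medians of these lists lay between -0.07 for endoderm and 0.18 for cardiac genes. The summed cardiac level was 11 to 11.25 in induced DP cells and 10.76 to 11.08 in noninduced DP cells, and the summed endoderm level was 10.48 to 11.16 in induced cells and 10.75 to 11.60 in noninduced cells. Among 15 p53 target genes Phlda3, a pleckstrin-domain inhibitor of Akt, fell by 0.93 ± 0.21 (adjusted p = 0.0259). Phlda3 was the 1 p53 target called (6.67%, against 1.63% of all genes). The p53 median was -0.27 and 3 of the 15 differences were above 0. The Phlda3 call was lost without induced array 1 or noninduced array 1 or 2 (0.0886 to 0.134), and a second probe of it was not called (-0.59). Immediate early genes had the lowest median of the lists with 5 or more measured members, -0.36 over 18 genes, and none was called. In the plot of gene lists the endothelial, Hox, p53 and immediate early medians are the ones furthest below the median of all genes.

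**Figure D3:**
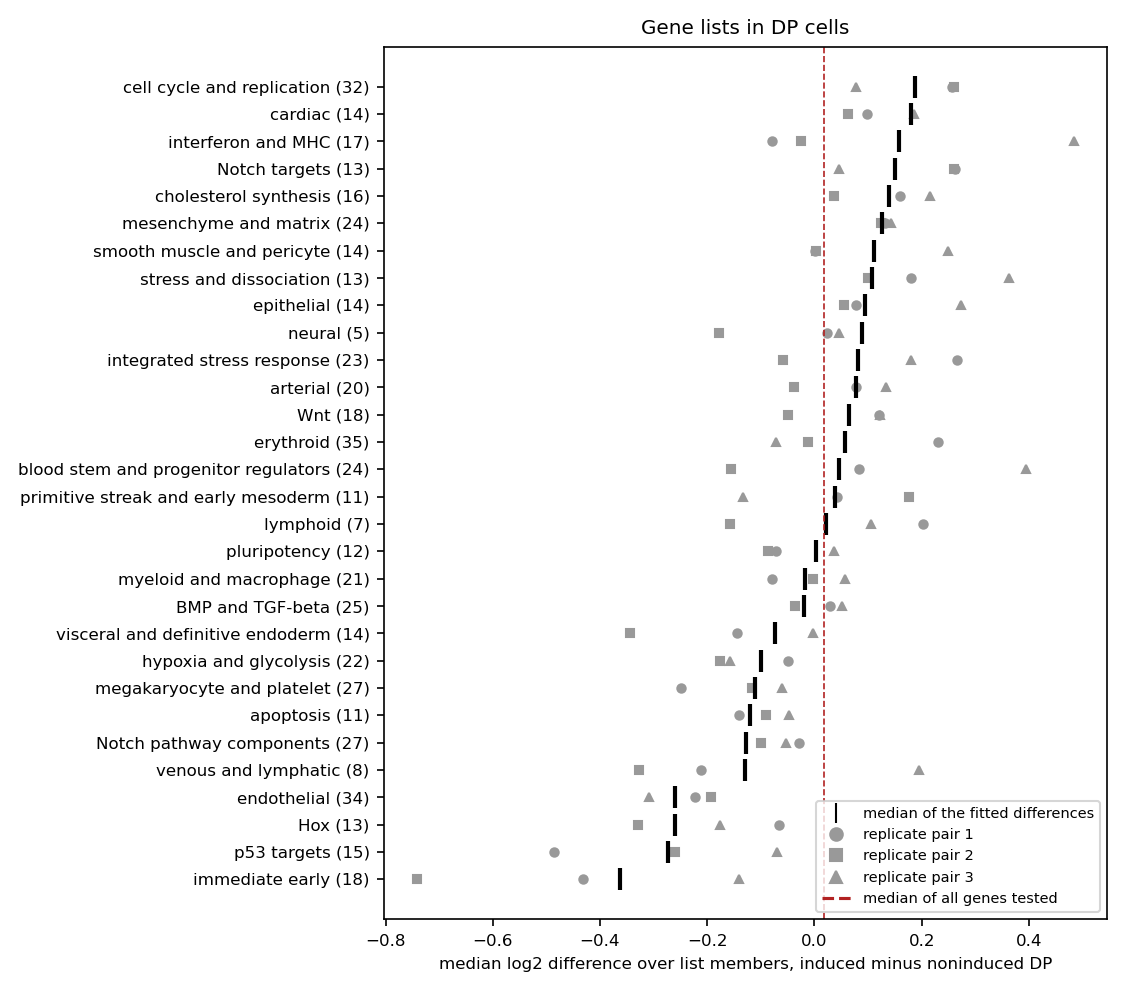
Median log2 difference, induced minus noninduced DP, over the measured members of 30 gene lists (their number in brackets). Black bars are medians of the fitted differences, grey symbols the medians in replicate pairs 1 to 3, and the dashed line the median of all genes tested (0.02). The endothelial median is -0.26 and the immediate early median -0.36.

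The response of DP cells was then set beside the responses of the other fractions, which share no arrays with it but come from the same replicate sets. Calls numbered 156 in DP cells (1.63%), 415 in VE sp cells (4.33%), 88 in CD41 sp cells (0.918%) and 392 in DN cells (4.09%). Of the 156 DP calls, 40 were also called in the same direction in VE sp cells (25.6% of the DP calls and 9.64% of the VE sp calls). In CD41 sp cells 24 were (15.4% and 27.3%), and in DN cells 38 (24.4% and 9.69%). The DP calls had the same sign in 77.6% of cases in VE sp, 78.8% in CD41 sp and 82.7% in DN cells. The share of same signs over all genes was not counted. Over all genes tested, the differences in DP cells correlated with those in VE sp, CD41 sp and DN cells at 0.269, 0.216 and 0.389. A DP call was called in the opposite direction 1 time in VE sp and 1 time in DN cells. In all 4 fractions 7 genes were called in 1 direction, among them Hey1, Igfbp5, Col5a1, Cdkn1c and Smad6, and 84 of the 156 were called in DP cells alone, which does not show that the response differed.

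None of the 7 genes called in every fraction passed a test of a difference in response (adjusted p = 0.259 to 0.995 against VE sp and 0.125 to 0.982 against the mean of the others), which does not show that the responses were alike. Hey1 differed by 2.87 in DP, 1.76 in VE sp, 2.61 in CD41 sp and 2.76 in DN cells. The DP response of Hey1 minus that of VE sp was 1.11 ± 0.44 (adjusted p = 0.259). Igfbp5 differed by 2.31 in DP, 2.83 in VE sp, 2.29 in CD41 sp and 1.62 in DN cells. Col5a1 differed by 2.25, 2.19, 1.57 and 1.98 in the same order, and Smad6 by 1.02, 1.01, 1.21 and 0.92.

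The test of the difference in response against the mean of the other 3 fractions called 13 genes (0.136%), 4 with a higher and 9 with a lower response in DP cells. At an unadjusted p under 0.05 there were 993. Nrarp rose by 2.23 in CD41 sp and 2.92 in DN cells but differed by 0.10 in DP and 0.45 in VE sp cells, and its DP response was lower than the mean of the others by a difference of -1.76 ± 0.23 (adjusted p = 0.00121). Mcpt1, a mast cell protease, rose by 3.66 in CD41 sp and 2.08 in DN cells, against a difference of 0.27 ± 0.15 in DP cells, where 1 induced and no noninduced array detected it (-1.64 ± 0.17, adjusted p = 9.08e-05). Gja4 rose by 2.16 in DN cells and differed by -0.97 in DP cells, which gave -2.05 ± 0.31 against the others (adjusted p = 0.00459). Col18a1, the collagen that yields endostatin, rose in CD41 sp (1.38) and DN cells (1.91) and differed by 0.04 in DP cells (-1.19 ± 0.18, adjusted p = 0.00459). In VE sp cells Mcpt1 differed by -0.006, Col18a1 by 0.40 and Gja4 by 0.80, and none of them was called. Against VE sp cells alone, the DP responses of Nrarp, Mcpt1 and Col18a1 were not shown to differ (adjusted p = 0.615, 0.594 and 0.4925). Gja4 passed that test (-1.77 ± 0.38, adjusted p = 0.0392), but lost the call without 4 of the single DP arrays (up to 0.119).

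Pparg rose more in DP cells than in the mean of the other fractions. It differed by 1.52 in DP cells, 0.39 in VE sp, 0.21 in CD41 sp and 0.02 in DN cells. The DP response exceeded the mean of the others by 1.31 ± 0.20 (adjusted p = 0.00459). Against VE sp cells alone the difference in response was 1.13 ± 0.25 (adjusted p = 0.0433). That call was lost without 5 of the 6 single DP arrays (up to 0.107). The response was not tested against CD41 sp or DN cells alone. Ggtla1, now Ggt5, a gamma-glutamyltransferase, was undetected in noninduced DP cells and at least 1.33-fold higher in induced ones (adjusted p = 0.000819). Ggtla1 differed by 0.30 in VE sp, -0.08 in CD41 sp and 0.008 in DN cells. Its response exceeded the mean of the others by 0.69 ± 0.13 (adjusted p = 0.0424). It met the detection filter in induced DP cells, where it rose from background, so this test is not separate support for the rise. The tests for Nrarp, Mcpt1, Gja4, Col18a1 and Pparg against the other fractions kept their calls when any 1 DP array was left out. The test for Ggtla1 lost it without 4 of the 6 (up to 0.211). All 13 calls together fell to 0 when replicate set 2 was left out or the arrays were scaled to their medians, and to 1 without replicate set 1 or without the block.

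Against VE sp cells, the other fraction in which Cdh5 was detected, 59 genes differed in response (0.615%), 25 higher and 34 lower in DP cells. Sox18 differed by -1.28 in DP cells and -0.07 in VE sp cells, a difference in response of -1.20 ± 0.26 (adjusted p = 0.0433) that was lost without 4 of the 6 single DP arrays (up to 0.0998). Prkcb, a protein kinase C isoform, rose by 2.52 in VE sp cells and differed by 0.18 in DP cells (-2.34 ± 0.26, adjusted p = 0.000199). Corin, the protease that activates natriuretic peptides, and Npr3, their clearance receptor, rose by 2.66 and 2.88 in VE sp cells, against differences of 0.35 and 0.67 in DP cells. In DP cells Prkcb was detected on 2 induced arrays and 1 noninduced array, Npr3 on 1 and 1, and Corin on 1 induced array only. These 3 genes passed the detection filter through other groups, and their DP differences are of signals near background. Etsrp71 differed by -1.34 in DP, -0.33 in VE sp, -1.05 in CD41 sp and -0.61 in DN cells, and its DP response was not shown to differ from that of VE sp (-1.01 ± 0.31, adjusted p = 0.14). On the endothelial list the counts were 0 rises and 4 falls in DP cells, 3 and 2 in VE sp, 0 and 2 in CD41 sp and 2 and 2 in DN cells. The medians were -0.26, 0.15, 0.10 and 0.07 in the same order. Of all genes, 1.63% were called in DP, 4.33% in VE sp, 0.918% in CD41 sp and 4.09% in DN cells, so the counts are not directly comparable. The difference of these lists between fractions was not tested.

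**Figure D4:**
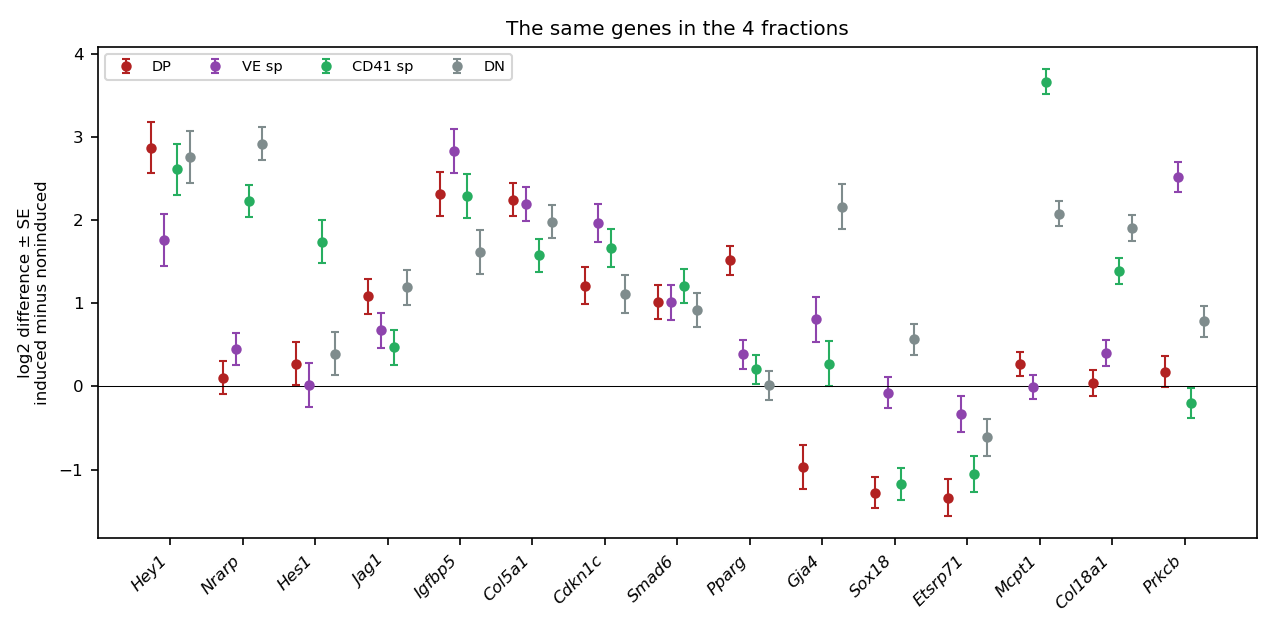
Log2 difference ± SE, induced minus noninduced, of 15 genes in DP, VE sp, CD41 sp and DN cells (3 arrays per group). Hey1, Igfbp5, Col5a1 and Smad6 lie above 0 in all 4 fractions, Nrarp rose in CD41 sp and DN cells and lies near 0 in DP cells (0.10), and Pparg is highest in DP cells (1.52).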

How the data were processed

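Per the labels, sorted-cell RNA (RNeasy) became biotinylated cRNA on Illumina arrays. The deposited tables, 1 per replicate set, gave probe intensity on a linear scale that was neither normalized nor background-subtracted, per the file headers. They also gave a detection p-value for each probe, per the file headers. A deposited table of the authors' processed intensities, made by a method that the sources used here do not give, served as an alternative.

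Background correction was by limma's neqc (limma 3.58.1, R 4.3.3), which took the negative-control level from the detection p-values, with an offset of 16 and quantile normalization. Of 25697 probes, 12894 were kept that had a detection p under 0.05 on each of the 3 arrays of some group, and the brightest probe stood for its symbol (9591 of 18120). Symbols are those of the array design, and 9275 matched RefSeq names (GRCm38.p6). limma's lmFit and eBayes were fitted to all 24 arrays with 8 group means and the replicate set as a block (14 residual degrees of freedom), with Benjamini-Hochberg adjustment over all genes. The block was used because the comparison is stated as paired by replicate number and each set is 1 table. As a check of pairing, DP arrays of the same number deviated together (r 0.513 to 0.595 in the 3 pairs, for deviations from group means, where 0 would mean no pairing). The number of arrays limits the precision. The script was tested on simulated data.

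The members, the gene lists and the tests were chosen with earlier results of these data known. Named are the Notch genes, sort markers and 15 blood and vessel regulators, the 15 largest called rises and falls with 1 sign in all pairs (clone names passed over), up to 4 called members of each list, and the 8 smallest p-values of each test between fractions. A few others were named after their values were seen. List levels are the log2 of summed intensities. Alternatives changed the block, the arrays fitted, scaling, background correction, detection filter, probe rule and array weights, or left out an array or a pair.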

Additional observations from a re-analysis of the deposited data

Results flagged for a closer look

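Each result here was picked because the test of the difference in response between fractions passed limma's adjusted p under 0.05. Between DP and VE sp cells 59 genes differed, and between DP cells and the mean of the other 3 fractions 13 did. All values are log2 differences between responses, DP first, and no cause was tested.

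Against VE sp cells, the smallest p-values belonged to Prkcb (-2.34, adjusted p = 0.000199), Aqp11 (-1.74, 0.00135), Gpc3 (1.24, 0.00635), Corin (-2.31, 0.0126), Lyar (1.08, 0.0163), Npr3 (-2.21, 0.0163), Exosc2 (0.984, 0.0168) and Sspn (-1.05, 0.0215). All of these but Exosc2 were called in VE sp cells and not in DP cells. Aqp11, a water channel, differed by 0.39 in DP and rose by 2.12 in VE sp cells, and Gpc3, a glypican, differed by -0.18 in DP and fell by 1.42 in VE sp cells. Exosc2, a subunit of the RNA exosome, rose in DP cells (0.55, adjusted p = 0.0259) and fell in VE sp cells (-0.44, 0.0447), but a second probe of it differed by 0.05 in DP cells. Lyar, a nucleolar protein, differed by 0.44 in DP (adjusted p = 0.0918) and fell by 0.64 in VE sp cells. Sspn, a dystrophin-associated protein, differed by 0.39 in DP and rose by 1.43 in VE sp cells. Prkcb, Corin, Npr3 and Sspn were not detected on all 3 arrays of either DP group. They passed the detection filter through other groups, so their DP differences are of signals near background. Without noninduced DP array 2, Corin, Lyar, Npr3, Exosc2 and Sspn lost the call, and all of them but Corin also without noninduced DP array 1 (adjusted p up to 0.0622), while Prkcb, Aqp11 and Gpc3 kept it without any 1 DP array. All 3 lost it without replicate set 1 and without set 2. Aqp11 and Gpc3 also lost it without the block (0.667 and 0.544) and with median scaling (0.403 and 0.947).

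Against the mean of the other 3 fractions, the 8 named genes with the smallest p-values among the 13 were Mcpt1 (-1.64), Nrarp (-1.76), Gja4 (-2.05), Col18a1 (-1.19), Pparg (1.31), Epb4.1l3 (-1.04), Ggtla1 (0.688) and Serpinf1 (-1.0). Exosc2 passed this test too (0.71, adjusted p = 0.0455). Epb4.1l3, a membrane skeleton protein, differed by -0.53 in DP cells (adjusted p = 0.0763) and by 0.34 in VE sp, 0.40 in CD41 sp and 0.79 in DN cells. Serpinf1, a secreted serpin that inhibits angiogenesis, differed by -0.01 in DP cells and rose by 0.78 in VE sp, 0.92 in CD41 sp and 1.29 in DN cells. Epb4.1l3 lost the call without noninduced DP array 1 (adjusted p = 0.0809), and Serpinf1 without 5 of the 6 DP arrays (up to 0.208).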

How the results depend on the processing

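Directions of the 40 called genes named held under every alternative run. Of the 30 gene lists with 5 or more measured members, 15 had a median that changed sign under some alternative, among them the arterial (-0.06 to 0.19), erythroid (-0.08 to 0.12) and myeloid (-0.04 to 0.14) lists. The count of 156 genes called in DP cells moved to 14 without the replicate block, 3 with the DP arrays only and 10 with median scaling, and lay between 38 and 267 when an array or a pair was left out. Of these 40 genes, 9 kept their call without the block, 3 with the DP arrays only (Hey1, Irx5 and Oit3) and 9 with median scaling (Hey1, Igfbp5, Emid2, Col5a1, Tcf21, Pparg, Oit3, Lilrb4 and Tcf15). Fewer residual degrees of freedom are part of the fit on the DP arrays only. For the others the cause was not tested. Median scaling put the median of all genes at -0.10 in place of 0.02. Counts of 116 to 211 came from no detection filter, a stricter one, no background correction, the authors' values, the mean of probes and array weights. With array weights the calls divided into 99 rises and 91 falls, against 99 and 57, and without induced array 3 into 53 and 76.

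The 59 genes whose response differed between DP and VE sp cells became 2 without the block, 1 with median scaling, 93 without background correction and 143 with array weights, and 0 to 76 in the leave-outs. The 13 against the other 3 fractions became 1 without the block and 0 with median scaling, and 0 to 14 in the leave-outs. Signal over background limits genes such as Jag1 and Emid2, which have only a bound in noninduced cells.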
